A study of Sus scrofa with 9 samples.

Results

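Expression of 7 genes of ketone body metabolism was followed in pig liver: the enzymes ACAT1, BDH1, BDH2 and OXCT1 and the carriers SLC16A1, SLC16A6 and SLC16A7. They are 7 of the 29837 gene symbols in the deposited count table and were taken by symbol. The set was chosen by pathway with earlier results of the same comparison known, so the differences below describe these animals and are no independent test of the pathway. All 7 passed the filter on low counts. Not all of them make or export ketone bodies: OXCT1 belongs to ketone body use, and SLC16A7 can carry ketone bodies into cells as well as out of them.

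The animals were 4 MIDY pigs and 5 wild type (WT) controls. All 9 were females aged 2 years. The name MIDY abbreviates a diabetes of youth that a mutant INS gene induces, in which insulin misfolds. The MIDY animals carry a C94Y insulin transgene, and diabetic animals were given short and long acting insulin, so genotype and insulin treatment cannot be told apart. All animals were fed daily. The sources used here do not give the promoter of the transgene, blood ketone levels or the time from the last meal to sampling. Each library was made from ribosomally depleted total RNA of 1 liver.

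Ketone bodies are made in the mitochondria of liver cells from the acetyl-CoA that fatty acid oxidation releases. ACAT1 joins acetyl-CoA units to acetoacetyl-CoA, further steps lead to acetoacetate, and BDH1 interconverts acetoacetate and 3-hydroxybutyrate. Both products leave the cell through monocarboxylate carriers of the SLC16 family and serve other organs as fuel, where OXCT1 returns acetoacetate to acetoacetyl-CoA. Insulin restrains this pathway, and lack of insulin is known to release it. OXCT1 is known to be scarce in hepatocytes, which spares the ketone bodies the liver makes.

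SLC16A7 was lower in MIDY liver, with a mean 0.700 times that in WT, and was the only gene of the 7 to pass the test over all genes. The other 6 did not pass. The ratio of the MIDY mean to the WT mean was 1.19 for ACAT1, 1.22 for BDH1 and 1.22 for SLC16A1, 0.685 for OXCT1 and 0.726 for SLC16A6, and 1.01 for BDH2. Thus 0 of 7 genes were called higher and 1 of 7 lower by edgeR's quasi-likelihood test at a Benjamini-Hochberg adjusted p below 0.05. Of the 14100 genes tested, 0.816% were called higher, 0.355% lower and 1.17% in either direction. At an unadjusted p below 0.05 there were 4 of the 7 genes, 2 in each direction, beside 16.1% of all genes tested. For 2 of the 7, the levels of MIDY and WT livers did not overlap, ACAT1 and SLC16A7, beside 6.35% of all genes tested. Because the same contrast was known when the set was chosen, nothing is read from these shares.

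The libraries held 14115415 to 19533463 counts. WT replicate 2 lay apart on the second principal component of the 500 most variable genes (25.2, against -11.0 to 4.12 for the other 8 libraries), and WT replicate 1 was the WT library nearest to the MIDY libraries on the first component (0.90, against 6.51 to 24.1 for MIDY and -20.0 to -11.8 for the other WT libraries). Hepatocyte markers dominated all libraries, with 8 markers summing to 128300 to 153800 CPM in MIDY and 98530 to 154600 CPM in WT, and the muscle markers summed to at most 0.105 CPM in MIDY and 0.350 CPM in WT. CPM are counts per 1e6 TMM-scaled counts of a library. In bulk tissue, fewer cells of a type and less RNA per cell cannot be told apart. Levels are compared between libraries only and not between genes, because no transcript lengths were used.

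ACAT1, the mitochondrial acetoacetyl-CoA thiolase, lies on chromosome 9 (36525266 to 36545634, Sscrofa11.1). It also works in isoleucine breakdown. Its level was 274, 312, 323 and 281 CPM in MIDY livers 1 to 4, against 249, 237, 261, 252 and 248 CPM in WT livers 1 to 5. Every MIDY liver was above every WT liver, although the step between the groups was small. The mean was 297 ± 24.0 CPM in MIDY (SD, n = 4) and 249 ± 8.45 CPM in WT (SD, n = 5). ACAT1 had a log2 fold change of 0.25 ± 0.09 (SE; 95% interval 0.05 to 0.46) and was not called (edgeR adjusted p = 0.209). In WT it varied least of the 7 genes, with a coefficient of variation of 3.39%.

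BDH1, the mitochondrial 3-hydroxybutyrate dehydrogenase, lies on chromosome 13 (132602372 to 132647271). Its level was 249, 248, 198 and 163 CPM in MIDY livers, against 196, 143, 212, 166 and 165 CPM in WT livers. MIDY livers 1 and 2 were above all WT livers, and MIDY liver 4 was below 4 of the 5. The mean was 215 ± 41.7 CPM in MIDY (SD, n = 4) and 176 ± 27.5 CPM in WT (SD, n = 5). The log2 fold change of 0.28 ± 0.15 (SE; 95% interval -0.04 to 0.61) was not called (edgeR adjusted p = 0.384).

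BDH2, on chromosome 8 (117969913 to 117995219), encodes a related cytosolic dehydrogenase for which 3-hydroxybutyrate has been described as a substrate. Its level was 55.7, 56.2, 54.3 and 41.6 CPM in MIDY livers, against 61.6, 45.0, 54.0, 42.7 and 53.5 CPM in WT livers. The groups overlapped throughout, and MIDY liver 4 was the lowest of the 9. The fitted log2 fold change was 0.02 ± 0.13 (SE; 95% interval -0.27 to 0.30), which leaves room for a mean up to 17.0% lower or 23.3% higher in MIDY.

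OXCT1, the succinyl-CoA transferase that starts ketone body use, lies on chromosome 16 (26514497 to 26659739). It was scarce, with raw counts of 24, 45, 53 and 33 in MIDY livers, against 56, 54, 46, 56 and 60 in WT livers. These counts correspond to 1.50, 3.12, 2.79 and 1.73 CPM in MIDY, against 3.89, 2.70, 3.18, 3.53 and 3.39 CPM in WT. MIDY livers 1 and 4 were below all WT livers, while MIDY livers 2 and 3 lay within the WT range. OXCT1 had a log2 fold change of -0.55 ± 0.25 (SE; 95% interval -1.08 to -0.01) and was not called (edgeR adjusted p = 0.301). A long non-coding RNA model, LOC106505880, overlaps OXCT1 and had 0 counts in MIDY and 2 in WT.

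SLC16A7, the high-affinity monocarboxylate carrier MCT2, takes up pyruvate, lactate and ketone bodies in many tissues. It lies on chromosome 5 (24713009 to 24871891), and no other gene model overlaps it. Its level was 26.7, 21.2, 22.9 and 19.4 CPM in MIDY livers, against 34.2, 31.6, 30.0, 33.5 and 31.6 CPM in WT livers. The highest MIDY liver was below the lowest WT liver. The mean was 22.5 ± 3.14 CPM in MIDY (SD, n = 4) and 32.2 ± 1.67 CPM in WT (SD, n = 5). The log2 fold change was -0.52 ± 0.11 (SE; 95% interval -0.75 to -0.28; edgeR adjusted p = 0.0444), so the interval runs from -40.7 to -17.4% of the WT level. DESeq2, which called 4.62% of the genes to which it gave an adjusted p, also called it (DESeq2 adjusted p = 0.00177).

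That call was close to the threshold. The fitted fall kept its direction in each fit that left out 1 library (-0.61 to -0.46), but the gene was called in only 1 of these 9 fits, the one without MIDY replicate 1 (edgeR adjusted p = 0.0283). The edgeR adjusted p was 0.134, 0.118 and 0.0710 without MIDY replicates 2, 3 and 4. It was 0.0557, 0.0878, 0.0656, 0.0941 and 0.0942 without WT replicates 1 to 5, and 0.123 without WT replicates 1 and 2 together. Scaling by total counts alone gave a log2 fold change of -0.50 and an adjusted p of 0.0578.

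Markers of non-hepatocyte populations were summed in each library, and of 6 such lists the T and NK cell sum alone did not overlap between the groups. The 7 T and NK cell markers summed to 13.5 to 16.5 CPM in MIDY and 20.1 to 34.5 CPM in WT, with 1 of 7 called lower. The 8 stellate cell and fibroblast markers summed to 258 to 391 CPM in MIDY and 361 to 618 CPM in WT, with 1 of 8 called lower. Kupffer cell and macrophage markers summed to 308 to 378 CPM in MIDY and 331 to 526 CPM in WT, endothelial markers to 767 to 853 CPM in MIDY and 696 to 859 CPM in WT, and 0 of 8 were called in either list. B and plasma cell markers summed to 14.2 to 21.3 CPM in MIDY and 20.9 to 51.0 CPM in WT, with 2 of 5 tested and 0 called. Cholangiocyte markers summed to 25.4 to 37.2 CPM in MIDY and 29.8 to 76.5 CPM in WT, with 0 of 6 called. Fitted values were below 0 for 7 of 7 tested T and NK cell markers and 7 of 8 stellate cell and fibroblast markers. The same held for 7 of 8 Kupffer cell, 5 of 6 cholangiocyte, 2 of 2 B and plasma cell and 5 of 8 endothelial markers. Of all 14100 genes tested, 7153 were below 0. None of the marker genes in these 6 lists was at 0 counts throughout. The part of these cells in the levels of SLC16A7 and OXCT1 was not tested. Outside these 6 lists, the 4 adipocyte markers summed to 3.54 to 5.37 CPM in MIDY and 2.32 to 2.77 CPM in WT. The adipocyte sum thus did not overlap between the groups either, with 2 of the 4 markers tested and 0 called. Neutrophil markers summed to 1.57 to 4.06 CPM in MIDY and 2.71 to 7.1 CPM in WT. Erythroid markers summed to 162 to 537 CPM in MIDY and 69.1 to 1493 CPM in WT.

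SLC16A1 encodes MCT1, the widely expressed carrier of lactate and ketone bodies. It lies on chromosome 4 (107510920 to 107547609). Its level was 155, 120, 146 and 102 CPM in MIDY livers, against 106, 99.6, 116, 115 and 98.0 CPM in WT livers. All MIDY livers but liver 4 were above all WT livers. The mean was 131 ± 24.3 CPM in MIDY (SD, n = 4) and 107 ± 8.41 CPM in WT (SD, n = 5). The log2 fold change of 0.29 ± 0.13 (SE; 95% interval 0.02 to 0.57) was not called (edgeR adjusted p = 0.284). LRIG2 overlaps SLC16A1, and its reads cannot be told apart from those of SLC16A1 where the models overlap, as the strand setting is not known. LRIG2 itself had a log2 fold change of 0.20 ± 0.18 (SE; edgeR adjusted p = 0.633).

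SLC16A6 encodes MCT7, which is needed for 3-hydroxybutyrate export from the liver in fasted zebrafish. It lies on chromosome 12 (11857832 to 11875317) and varied most of the 7 genes. Its level was 37.2, 16.1, 17.1 and 15.2 CPM in MIDY livers, against 24.6, 33.3, 22.6, 22.6 and 44.2 CPM in WT livers. MIDY livers 2, 3 and 4 were below all WT livers, whereas MIDY liver 1 was above all WT livers except liver 5. The coefficient of variation was 49.4% in MIDY and 31.7% in WT. The log2 fold change was -0.47 ± 0.31 (SE; 95% interval -1.16 to 0.23) and was not called (edgeR adjusted p = 0.501). Without MIDY replicate 1 it was -0.87 (edgeR adjusted p = 0.0999), and without WT replicate 5 it was -0.27 (edgeR adjusted p = 0.714). The size of the log2 fold change thus depended on single animals, while it stayed below 0 with any 1 library left out. ARSG overlaps SLC16A6, which makes its counts uncertain. ARSG had 56.9, 75.7, 34.2 and 42.0 CPM in MIDY livers, against 54.1, 37.2, 42.0, 49.9 and 51.6 CPM in WT livers. The part of ARSG reads in the counts of SLC16A6 was not tested.

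**Figure D1:**
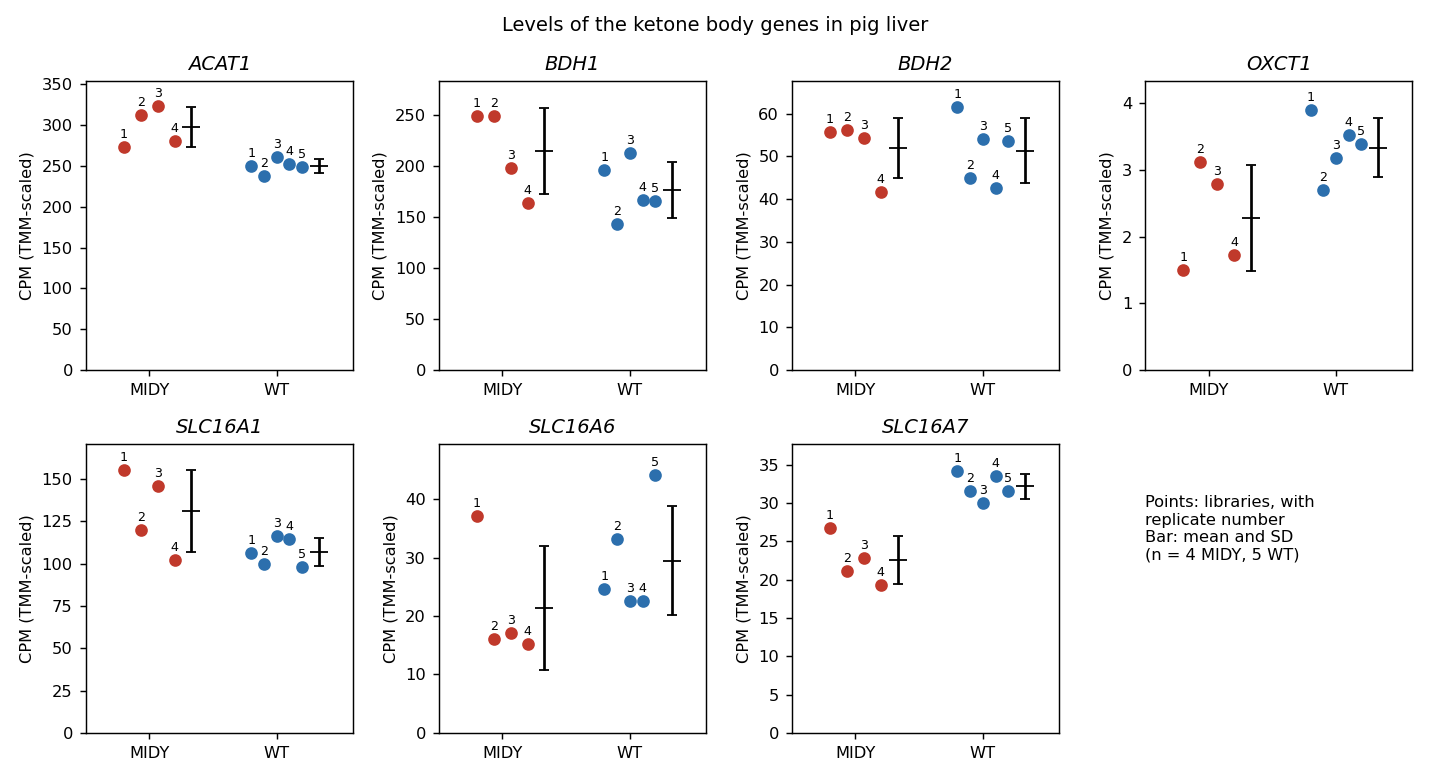
TMM-scaled CPM of each gene (vertical axes, from 0) in the 4 MIDY and 5 WT livers; points are libraries with their replicate number, and bars give the mean and SD. The groups separate for ACAT1 (lowest MIDY liver 274 CPM, highest WT liver 261 CPM) and SLC16A7 (highest MIDY liver 26.7 CPM, lowest WT liver 30.0 CPM) and overlap for the other 5 genes.

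The intervals of the fitted differences show how much the data allow. For BDH1, BDH2 and SLC16A6 the interval included 0. For ACAT1, SLC16A1 and OXCT1 it did not, but these 3 genes were not called once p was adjusted over all genes. The widest interval was that of SLC16A6 and the narrowest that of ACAT1. The median log2 fold change was 0.02 over the 7 genes and -0.005 over all genes tested.

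**Figure D2:**
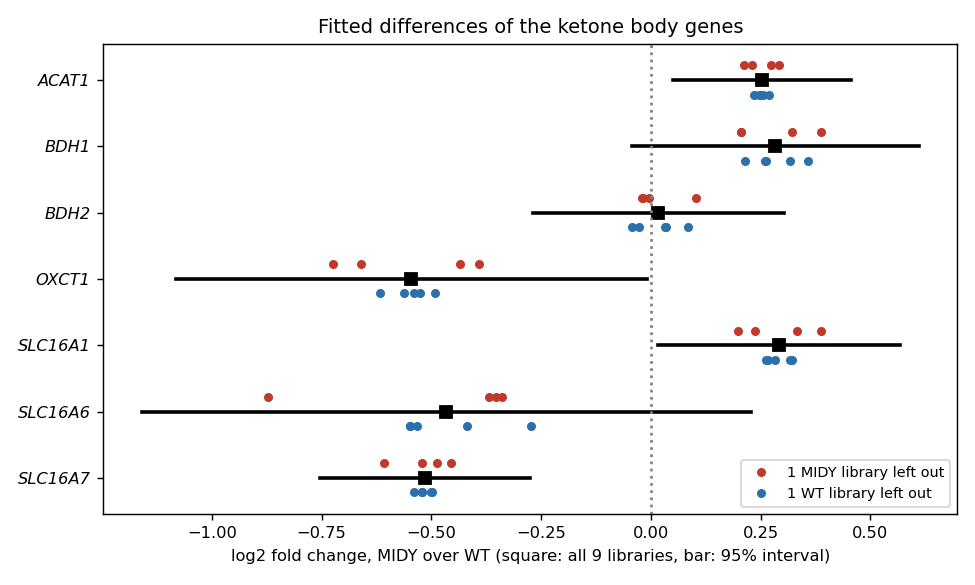
Log2 fold change, MIDY over WT, for each gene: squares show the fit of all 9 libraries, bars its 95% interval, and dots the fits without 1 MIDY library or without 1 WT library. SLC16A7 lies at -0.52 with all dots between -0.61 and -0.46, while the dots of SLC16A6 run from -0.87 to -0.27 and those of BDH2 fall on both sides of 0.

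The transcripts of MCT1 and MCT2 were also compared as a ratio within each liver. The count of SLC16A1 divided by that of SLC16A7 in the same library does not depend on the scaling between libraries. It was 5.82, 5.68, 6.39 and 5.28 in MIDY livers, against 3.11, 3.15, 3.87, 3.43 and 3.10 in WT livers. The groups did not overlap, and the mean was 5.79 ± 0.46 in MIDY (SD, n = 4) and 3.33 ± 0.33 in WT (SD, n = 5). This ratio sets a gene with a higher mean in MIDY over the gene called lower, so it was bound to be higher in MIDY. These ratios were picked after the values had been seen and carry no test, and their absolute size also depends on transcript length.

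The counts of ACAT1 and of BDH1 divided by that of OXCT1 were likewise higher in every MIDY liver than in any WT liver. None of ACAT1, BDH1 and OXCT1 was called. These ratios set genes with a higher mean in MIDY over a gene with a lower one, so they were bound to lean this way. ACAT1 over OXCT1 was 183, 99.9, 116 and 162 in MIDY livers, against 64.0, 88.0, 82.2, 71.4 and 73.2 in WT livers. BDH1 over OXCT1 was 166, 79.5, 70.9 and 94.3 in MIDY livers, against 50.3, 52.9, 66.8, 47.0 and 48.8 in WT livers. The counts of OXCT1 behind these ratios are low, and the lowest MIDY value of each lies close to the highest WT value. The mean ratio of BDH1 to BDH2 was 4.11 ± 0.40 in MIDY (SD, n = 4) and 3.45 ± 0.42 in WT (SD, n = 5), and here the groups overlapped. ACAT1 over BDH1 averaged 1.43 ± 0.30 in MIDY and 1.44 ± 0.18 in WT (SD, n = 4 and 5). SLC16A1 over SLC16A6 averaged 6.7 ± 1.9 in MIDY and 4.0 ± 1.3 in WT (SD, n = 4 and 5), and the groups overlapped.

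**Figure D3:**
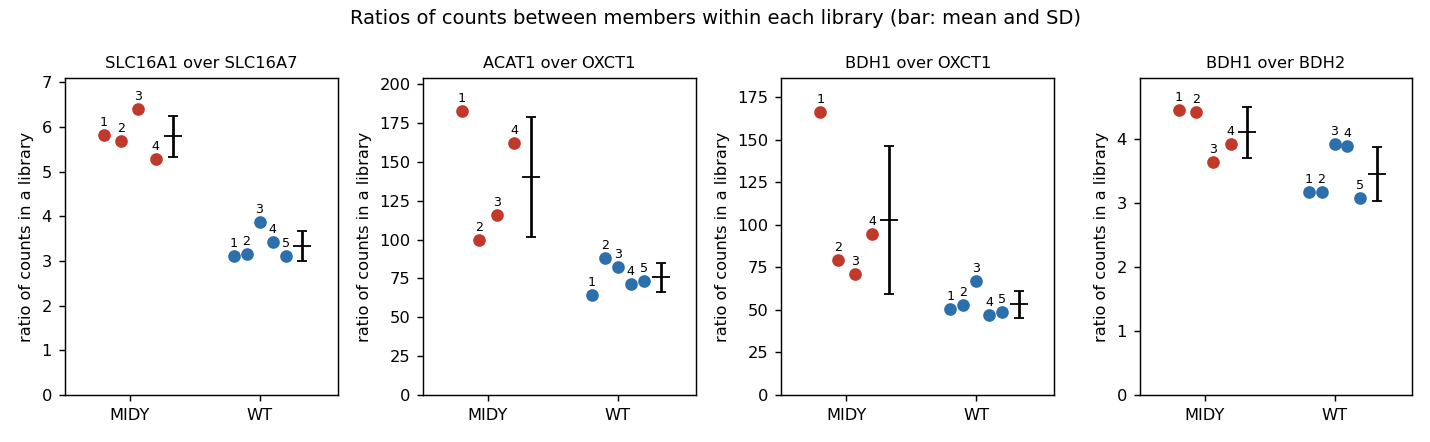
Ratio of raw counts of 2 genes in the same library (vertical axes, from 0) for the 4 MIDY and 5 WT livers, with the mean and SD. SLC16A1 over SLC16A7 is 5.28 or more in every MIDY liver and 3.87 or less in every WT liver, and BDH1 over BDH2 overlaps between the groups.

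Among the MIDY livers, animals 1 and 4 held most of the extreme values. MIDY liver 1 was the highest of its group for 4 genes (BDH1, SLC16A1, SLC16A6 and SLC16A7) and the lowest for ACAT1 and OXCT1, for which MIDY liver 4 was the next lowest. MIDY liver 4 was the lowest for 5 genes (BDH1, BDH2, SLC16A1, SLC16A6 and SLC16A7). The TMM factor was lowest in MIDY library 1 (0.948) and highest in MIDY library 4 (1.105) within that group. Scaled by total counts alone, MIDY 2 rather than MIDY 4 would be lowest for SLC16A6 (232 counts of 14819335, against 289 of 17279084). The same holds for SLC16A7 (305 against 369 counts), and MIDY 2 would be next lowest for ACAT1 (4497 against 5353 counts). The part of the factor in the rest of this order was not tested. Among WT livers, WT 2 was the lowest for ACAT1, BDH1 and OXCT1, and WT 1 the highest for BDH2, OXCT1 and SLC16A7.

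**Figure D4:**
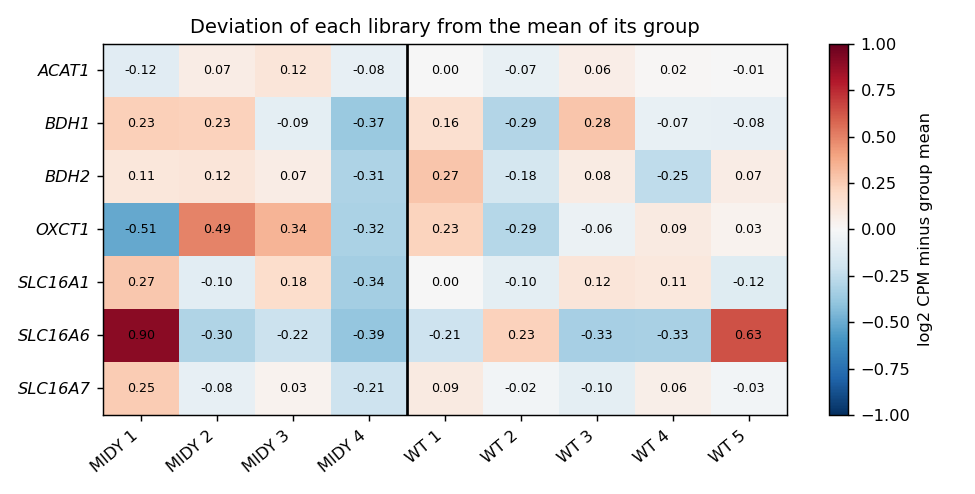
Log2 CPM of each gene (rows) in each library (columns) minus the mean of its group, in colour and in figures. SLC16A6 has the largest deviations, 0.90 in MIDY 1 and 0.63 in WT 5, and MIDY 4 is below its group mean for all 7 genes in these TMM-scaled values.

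After the mean of each group was subtracted, some pairs of genes varied together over the 9 libraries. Pearson's r was 0.87 for ACAT1 with OXCT1 (Spearman's rho 0.87) and 0.78 for BDH1 with BDH2 (rho 0.72). Without the 2 libraries farthest from the median of the gene named first, r was 0.78 for ACAT1 with OXCT1 and 0.81 for BDH1 with BDH2. For SLC16A1 with SLC16A7, r was 0.77 (rho 0.63) over the 9 libraries and 0.26 without the 2 farthest. Leaving out libraries by the gene named first narrows its range. A lower r alone therefore does not show that the relation rests on those libraries. Other pairs moved the opposite way: r was 0.30 for ACAT1 with BDH1 over the 9 libraries and 0.93 without the 2 farthest, and 0.28 and 0.89 for BDH1 with OXCT1. All pairs share the same libraries and scaling factors, 21 pairs were looked at, and these values are a description.

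The genes most like each of the 7 were sought by the same measure among 8634 genes of at least 5 CPM with a name other than a LOC number. CPNE3 (r = 0.98), IFRD1 (0.96) and SERP1 (0.96) were nearest to SLC16A7. The nearest gene was AK4 for ACAT1 (0.98), TBC1D13 for BDH1 (0.99), WNT2 for OXCT1 (0.92), PTOV1 for SLC16A1 (0.96) and GABPB1 for SLC16A6 (0.98). With 9 libraries and so many candidates, high values of r can come up without a relation between the genes. Of the 8634 candidates, 66 reached 0.9 with BDH1, 38 with SLC16A7, 12 with BDH2 and 11 with SLC16A6. The number was 6 with ACAT1, 6 with SLC16A1 and 5 with OXCT1.

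Around the pathway, 3 of the 60 tested genes reported here from 6 lists rose at an adjusted p below 0.05 over all genes (LDHA, LDHB and CREB3L3), and 0 fell, beside 0.816% of all genes tested that rose and 0.355% that fell. The lists were set up with earlier results of these data known. LDHA and LDHB encode the subunits of lactate dehydrogenase, whose substrates pyruvate and lactate use the same carriers as ketone bodies. LDHB was at 116, 102, 80.6 and 48.9 CPM in MIDY livers, against 38.6, 39.2, 26.8, 40.5 and 25.8 CPM in WT livers. LDHA was at 76.9, 90.1, 81.7 and 64.0 CPM in MIDY livers, against 44.2, 58.0, 38.2, 51.6 and 40.1 CPM in WT livers. Both were higher in every MIDY liver than in any WT liver, beside 6.35% of all genes tested whose levels did not overlap in either direction. The log2 fold change was 1.34 ± 0.24 for LDHB and 0.75 ± 0.14 for LDHA (SE; edgeR adjusted p = 0.0273 for both), while LDHD, which acts on D-lactate, had a log2 fold change of -0.01. LDHB was not called without MIDY replicates 1, 2 or 3 or WT replicates 2, 3 or 5 (edgeR adjusted p = 0.0517, 0.0846, 0.0641, 0.0555, 0.0704 and 0.0618). LDHA was not called without MIDY replicates 2 or 3 or WT replicates 3 or 5 (edgeR adjusted p = 0.0892, 0.0746, 0.0604 and 0.0696).

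Of 12 tested regulators of ketogenesis, 1 rose and 0 fell, with a median log2 fold change of 0.26. CREB3L3, a liver transcription factor that works with PPARA in fasted mice, was at 165 ± 37.5 CPM in MIDY (SD, n = 4) and 100 ± 11.8 CPM in WT (SD, n = 5). It rose, with a log2 fold change of 0.72 ± 0.15 (SE; edgeR adjusted p = 0.0394). PDK4, which inhibits pyruvate dehydrogenase, averaged 929 ± 175 CPM in MIDY and 566 ± 110 CPM in WT (SD, n = 4 and 5; edgeR adjusted p = 0.0527). PPARA, the nuclear receptor that drives fat oxidation and ketogenesis, had a log2 fold change of 0.74 ± 0.18, and INSR, the insulin receptor, one of 0.42 ± 0.10 (SE; edgeR adjusted p = 0.0756 and 0.0549). These 3 did not pass in edgeR, although no WT liver reached the level of any MIDY liver. Levels of the groups did not overlap for 6.35% of all genes tested. CREB3L3 was not called without MIDY replicates 1, 2 or 3 or WT replicates 2, 3, 4 or 5 (edgeR adjusted p = 0.0726, 0.114, 0.0619, 0.0878, 0.0804, 0.0591 and 0.0950). Some alternatives called PDK4, INSR or PPARA, and those not named here did not. PDK4 was called without WT replicate 3, with total counts only and without a filter (edgeR adjusted p = 0.0344, 0.0389 and 0.0213), and INSR with total counts only (edgeR adjusted p = 0.0496). DESeq2 called PDK4, INSR and PPARA (adjusted p = 0.00198, 5.9e-04 and 0.0100), beside 4.62% of the genes to which it gave an adjusted p. The limma voom fit called PDK4 and INSR (adjusted p = 0.0256 and 0.0324). FGF21, a fasting hormone of the liver, had 6 counts in all MIDY libraries together and 1 in all WT libraries, too few to be tested.

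Of 18 tested genes of mitochondrial fat oxidation, which supplies the acetyl-CoA, 0 were called in either direction, and 16 had a fitted value above 0 (median 0.25), beside 6947 of the 14100 genes tested (median -0.005). HADHA and HADHB, the subunits of the trifunctional protein, had log2 fold changes of 0.51 ± 0.18 and 0.32 ± 0.11, and SLC25A20, the carnitine carrier, one of 0.44 ± 0.18 (SE; edgeR adjusted p = 0.185, 0.177 and 0.251). Without MIDY replicate 1 the log2 fold change was 0.33 for HADHA and 0.24 for SLC25A20. The largest fitted values of the list were those of CPT2, 1.14 ± 0.45, and CPT1A, 0.72 ± 0.32 (log2 ± SE, edgeR adjusted p = 0.266 and 0.311). The levels of both overlapped between the groups. Of 12 tested genes of leucine and isoleucine breakdown, 0 were called, with a median of 0.12. BCAT1, the cytosolic branched-chain aminotransferase, had 0.27 ± 0.11, MCCC2, of leucine breakdown, 0.23 ± 0.10 and BCKDHA, of the branched-chain keto acid dehydrogenase, 0.29 ± 0.13 (log2 ± SE; edgeR adjusted p = 0.251, 0.301 and 0.304).

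Of 12 tested genes for other monocarboxylate carriers and for the proteins that bring them to the membrane, 0 were called (median 0.19). SLC16A10, a carrier of aromatic amino acids in the same family, was at 24.2 ± 1.92 CPM in MIDY and 16.7 ± 3.04 CPM in WT (SD, n = 4 and 5; edgeR adjusted p = 0.0798). It was called without WT replicate 2 (edgeR adjusted p = 0.0402), without WT replicates 1 and 2 together (0.0493) and by DESeq2 (adjusted p = 0.0206). EMB, the membrane partner described for MCT2 in the rat, was at 7.81 ± 2.86 CPM in MIDY and 13.3 ± 2.26 CPM in WT (SD, n = 4 and 5; edgeR adjusted p = 0.124), and BSG, the partner of MCT1, had a log2 fold change of 0.08 ± 0.17 (SE). MPC2, of the mitochondrial pyruvate carrier, had one of 0.37 ± 0.14 (SE; edgeR adjusted p = 0.231), and 0.20 without MIDY replicate 1. SLC16A3, the lactate exporter MCT4, had 13 counts in all MIDY libraries together and 19 in all WT libraries, too few to be tested.

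The 3 tested cytosolic enzymes that handle acetoacetate or acetoacetyl-CoA for lipid synthesis were not called either. AACS, which activates acetoacetate, had a log2 fold change of -0.50 ± 0.29, ACAT2, the cytosolic thiolase, one of -0.58 ± 0.44, and HMGCS1, of cholesterol synthesis, one of -1.09 ± 0.86 (SE; edgeR adjusted p = 0.429, 0.566 and 0.587). WT liver 2 stood apart for HMGCS1, which was at 129, 105, 103 and 141 CPM in MIDY livers, against 138, 888, 65.2, 75.5 and 102 CPM in WT livers. Without WT replicate 2 the log2 fold change was 0.32 for HMGCS1, -0.02 for ACAT2 and -0.22 for AACS (edgeR adjusted p = 0.548, 0.976 and 0.676).

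**Figure D5:**
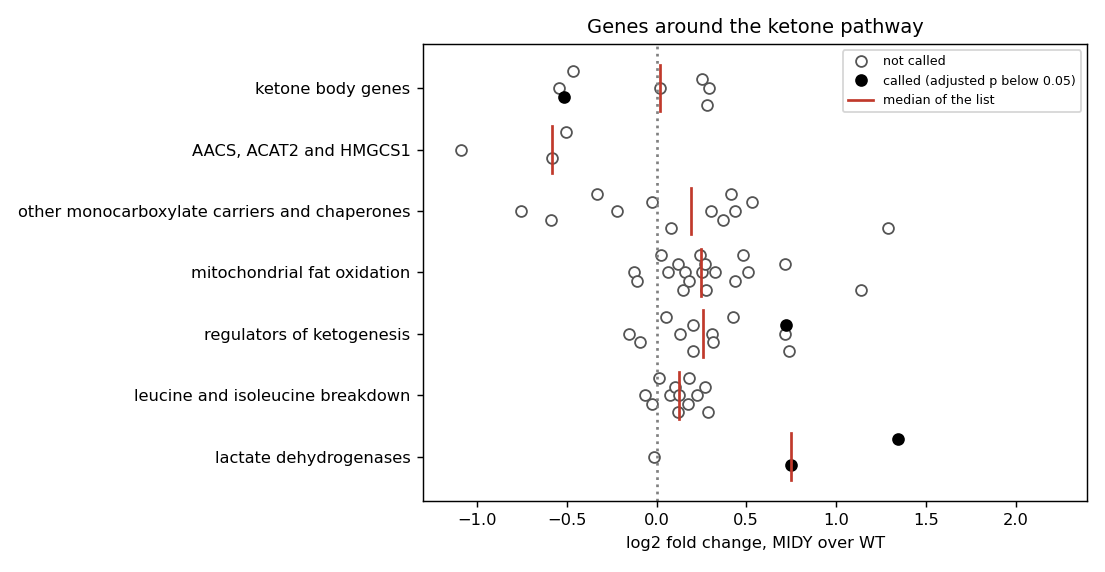
Log2 fold change, MIDY over WT, of the 7 ketone body genes and of the tested genes of 6 lists around the pathway; filled points were called at an adjusted p below 0.05, open points were not, and red lines are list medians. The called points are SLC16A7 at -0.52, CREB3L3 at 0.72, LDHA at 0.75 and LDHB at 1.34.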

How the data were processed

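RNA-seq libraries of liver from 4 MIDY and 5 WT pigs were grouped by the genotype in the labels. STAR, HTSeq, DESeq2 and the build Sscrofa11.1 are named in the submitters' processing notes. The sources used here give no versions, annotation release or strand setting. The deposited values are raw, unnormalized counts for each gene symbol. Positions and overlapping models come from the RefSeq gene table of Sscrofa11.1.

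Testing used edgeR 4.0.16 under R 4.3.3 (filterByExpr, TMM, robust quasi-likelihood fit; two-sided p, Benjamini-Hochberg over the 14100 genes tested, called below 0.05), a procedure tested on simulated data. Standard errors were taken from the F statistic (log2 fold change over its square root). CPM are counts per 1e6 TMM-scaled counts; the likeness measure used log2 CPM with a prior count of 2. The common biological coefficient of variation was 21.5%. DESeq2 1.42.0 and limma 3.58.1 (voom) were alternatives, beside RLE and total-count scaling, no or a stricter filter, removal of the 10 most abundant genes, and left-out libraries.

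The 7 genes, the lists and the alternatives were chosen with earlier results of these data known. Named genes are the 7 genes, of each list the called genes and up to 3 more with the smallest p, and the 3 genes most alike to each of the 7. BSG, CPT1A, CPT2, FGF21, SLC16A3 and the overlapping genes were named in addition. Some genes that these rules name are not reported here. The sources used here do not give litter, pen or batch. The fit took the animals as independent, so its p-values rest on the spread between them and could not allow for such sharing.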

Additional observations from a re-analysis of the deposited data

Results flagged for a closer look

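In 5 of 52 groups of 4 or 5 libraries checked (26 genes in each genotype), 1 library lay far from the others relative to the whole range. The cut flags about 1 in 20 groups when values are independent and normally distributed. Here CPM were not log-transformed and the groups share libraries, so that rate need not apply. SLC16A6 was at 37.2 CPM in MIDY replicate 1 and at 15.2 to 17.1 CPM in the other MIDY libraries. BDH2 was at 41.6 CPM in MIDY replicate 4 and at 54.3 to 56.2 CPM in the others. AACS was also low in MIDY replicate 4, at 32.1 CPM against 49.6 to 52.5 CPM. The TMM factor of MIDY library 4 was the highest of all libraries (1.105), which lowers its CPM. The part of this factor in the BDH2 and AACS flags was not tested. In WT replicate 2, ACAT2 was at 141 CPM, against 36.0 to 54.0 CPM in the other WT libraries, and HMGCS1 at 888 CPM, against 65.2 to 138 CPM.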

How the results depend on the processing

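No paired analysis was possible because the labels give no replicate numbers shared by MIDY and WT pigs. All 7 ketone body genes except BDH2 kept the direction of their log2 fold change under all 17 alternatives, and 0 of the 6 genes other than SLC16A7 was called under any. BDH2, close to 0, ran from -0.044 to 0.10 with 1 library left out and was below 0 without MIDY replicates 1, 2 or 3 (-0.02, -0.02 and -0.004) or WT replicates 2 or 4 (-0.03 and -0.044). The 1 gene called lower became 0 with total counts only and without WT replicates 1 and 2 together, and was 0 to 1 with 1 library left out. Over all genes, 115 were called higher and 50 lower. DESeq2 called 355 higher and 284 lower, limma voom 81 lower, and the fit without WT replicates 1 and 2 together 42 higher and 24 lower; with 1 library left out there were 34 to 152 higher and 4 to 107 lower. The 3 genes called higher around the pathway became 5 with total counts only and with limma voom and 7 with DESeq2, and 0 to 3 with 1 library left out; DESeq2 also called 1 lower, EMB. Without WT replicates 1 and 2 together, ACAT2 (0.12) and HMGCS1 (0.55) were above 0; with 1 library left out HMGCS1 ran from -1.34 to 0.32 (above 0 only without WT replicate 2). LDHD, close to 0, was above 0 with total counts only (0.011) and ran from -0.059 to 0.037 with 1 library left out. The cause of these changes was not tested. The low counts of OXCT1, 24 to 60 a library, limit its precision.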
